A study of Mus musculus with 4 samples.

Results

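The mitochondrial machinery of oxidative phosphorylation was followed here through its nuclear genes in pro-B cells with and without intact Tnpo3. The genes were taken from the count table by symbol, as those beginning with Ndufa, Ndufb, Ndufc, Ndufs, Ndufv, Uqcr, Cox4 to Cox8 or Atp5 and the genes Sdha to Sdhd, without symbols marked as pseudogenes. This gave 92 of 24411 genes. They comprised 43 genes of complex I, 4 of complex II, 8 of complex III, 20 of complex IV and 17 of ATP synthase. Genes of these complexes with other symbols, such as Cyc1, are not among the 92. The prefixes also take in genes that are not subunits, namely 7 Ndufaf genes, which encode assembly factors of complex I, and Atp5s and Atp5sl. These 2 are named after ATP synthase but were not counted as its subunits. The other 83 of the 92 are annotated subunits or their close relatives. Pro-B cells are early B cell precursors. They were sorted as B220+CD43+HSA+ cells from the bone marrow of C57BL/6 mice, 2 with the genotype Tnpo3+/+ mb1Cre (controls 55 and 69) and 2 with Tnpo3fl/fl mb1Cre (knockouts 51 and 63). All 4 mice carried mb1Cre, in which the B-lineage gene Cd79a drives Cre recombinase. Pairs of values are given throughout in the order control 55 and control 69, and knockout 51 and knockout 63. Ages were not given in the sources used here, and mitochondrially encoded subunits were not analysed.

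The respiratory chain moves electrons from NADH and succinate to oxygen through complexes I to IV of the inner mitochondrial membrane and pumps protons across it, and ATP synthase uses the proton gradient to make ATP. Most subunits are encoded in the nucleus and imported, and a small core is encoded by mitochondrial DNA. Nuclear subunit genes are expressed in nearly every cell, and some complex IV subunits have a second gene that is used in muscle, lung, testis or a few other cell types. Tnpo3 encodes transportin 3, a nuclear import receptor for splicing factors rich in serine and arginine.

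Each library came from its own mouse and held between 26211372 and 40647384 counted reads, 0.832% to 1.05% of them from the 92 genes. Levels are given as CPM, edgeR's unit of counts relative to library size, with library sizes adjusted by TMM factors. Differences are log2 fold changes of knockout against control with their standard error (SE), fitted with edgeR's quasi-likelihood test over all 13507 genes that passed its filter, and p-values are adjusted by Benjamini-Hochberg over those genes with a threshold of 0.05. Tnpo3 was at 159 and 148 CPM in the controls and at 79.7 and 68.8 CPM in the knockouts, with a log2 fold change of -1.05 ± 0.14 (adjusted p of 0.0108, and 0.0603 without knockout 63). Each genotype held 1 female (control 55 and knockout 63) and 1 male, read from Xist and Y-linked genes. The sorted populations differed in markers of other cells. All 12 dendritic cell markers were detected, and their summed level was 1373 to 2831 CPM in controls and 8115 to 11133 CPM in knockouts. Spib held the largest part of that sum in both controls (1517 and 691 CPM) and did not rise (633 and 950 CPM in the knockouts). The sum of 13 B-lineage markers was 10331 to 12082 CPM in controls and 2844 to 3592 CPM in knockouts. Natural killer markers (10 genes) summed to 48.5 to 49.0 and 279 to 932 CPM, T cell markers (10 genes) to 81.7 to 132 and 145 to 234 CPM, myeloid markers (14 genes) to 3810 to 4987 and 59.6 to 222 CPM, and erythroid markers (9 genes) to 160 to 168 and 41.7 to 67.9 CPM. Cd2 held the largest part of the T cell sum in both controls (108 and 36.04 CPM). It was lower in both knockouts (27.99 and 9.03 CPM) but did not pass (-1.96 ± 0.71, adjusted p of 0.107). The other 9 T cell markers were higher in both knockouts than in both controls. By edgeR, 10 of the dendritic, 7 of the natural killer and 4 of the T cell markers rose, and 10 of the B-lineage, 13 of the myeloid and 6 of the erythroid markers fell. No listed marker in the table was at 0 in all 4 libraries. In bulk RNA, fewer cells of a type and less RNA per cell cannot be told apart, and the part these cells play in the results that follow was not tested.

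Of the 92 genes, 86 passed the filter and were tested. Only Cox6a2 passed the threshold, and it rose in the knockout. That is 1 of 86 (1.16%), against 22.2% of all genes tested that passed in either direction, 11.3% higher and 10.9% lower. At an unadjusted p under 0.05, 11 of the 86 genes were higher and 1 was lower, against 18.8% and 19% of all genes tested. With DESeq2, 6 were called higher and 1 lower, where 15.2% and 14.1% of all genes were called. With sex as a block in edgeR, 10 were called higher and 1 lower, where 15.8% and 16.2% of all genes were called. The share of all genes called higher and lower was 10.8% and 9.16% without a filter, where 3 and 0 of the oxidative phosphorylation genes were called. It was 10.6% and 9.22% without control 55 (1 and 1 called), 11.7% and 11.2% without control 69 (4 and 1), 6.49% and 5.11% without knockout 51 (1 and 0) and 5.33% and 3.78% without knockout 63 (1 and 0). In each of these fits a smaller share of oxidative phosphorylation genes than of all genes was called.

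**Figure D1:**
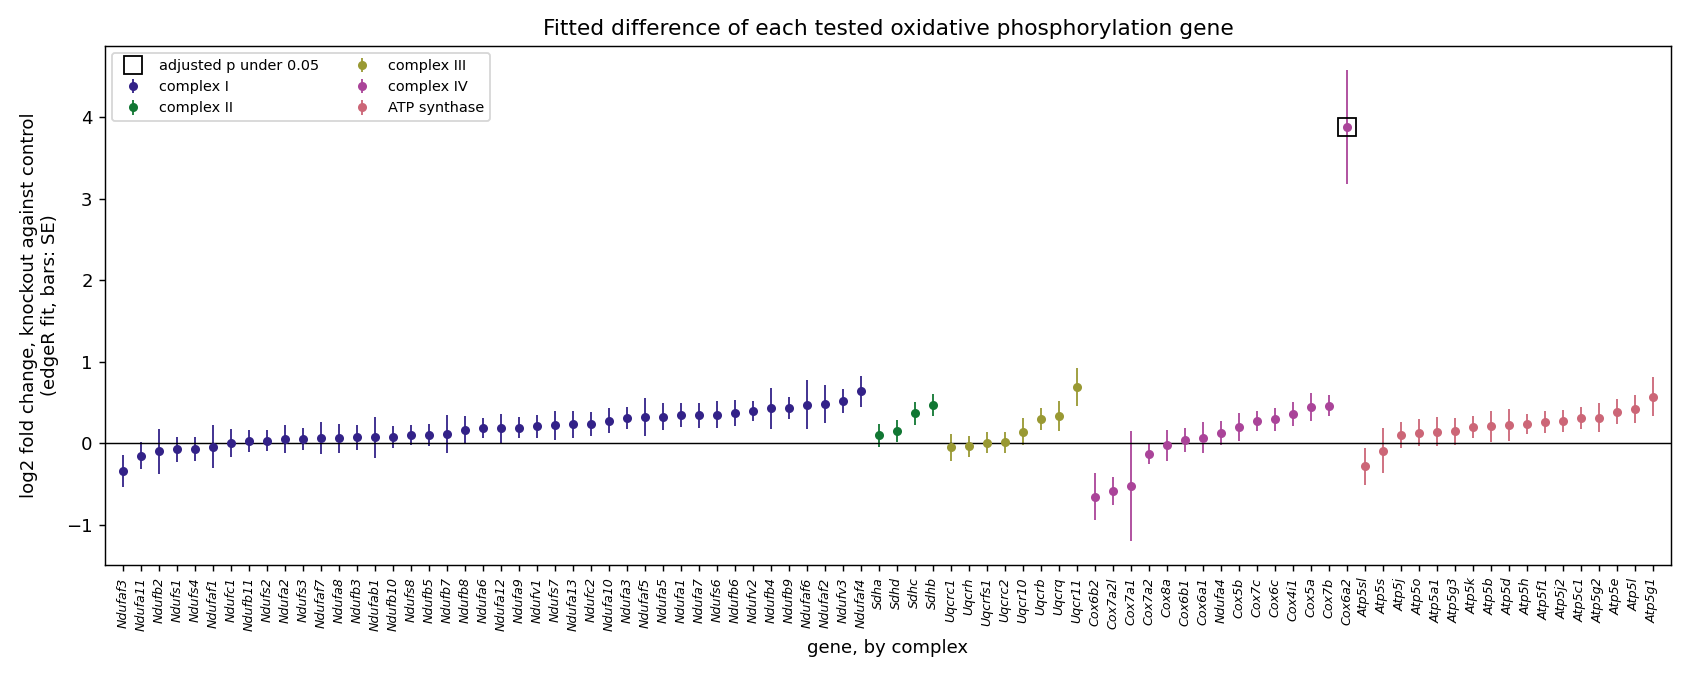
Log2 fold change of knockout against control (vertical axis) for each of the 86 tested genes, ordered by complex and size (horizontal axis); points are edgeR estimates, bars are SE, and a square marks an adjusted p under 0.05. Cox6a2 stands at 3.88 while the other 85 genes lie between -0.66 and 0.69.

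The sequences of 4 promoters are shown here as examples, and none of their genes passed the threshold in the main test. Cox6a1 is the common counterpart of Cox6a2, Sdhb and Ndufaf4 are higher in both knockouts, and Cox7a2l is lower in both. They were chosen after the values were seen. Cox7b and Ndufv3 are not shown, though their adjusted p by edgeR (0.0580 and 0.0596) was lower than that of Ndufaf4 (0.0657). Each line gives the 250 bases before the RefSeq transcription start on GRCm38.p6, read 5′ to 3′ on the strand of the gene. Capitals mark GCGCATG, the core of the motif bound by nuclear respiratory factor NRF1, CCGGAAG, the motif of ETS factors such as GABPA, and AAGATGG, a motif of YY1, on either strand and with overlapping matches joined.
Cox6a1 (chr5:115348959-115349208, minus strand): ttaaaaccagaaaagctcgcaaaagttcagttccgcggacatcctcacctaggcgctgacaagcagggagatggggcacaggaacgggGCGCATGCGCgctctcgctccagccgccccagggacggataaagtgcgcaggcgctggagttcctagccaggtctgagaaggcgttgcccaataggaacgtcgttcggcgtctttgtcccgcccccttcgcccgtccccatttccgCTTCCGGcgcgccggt
Sdhb (chr4:140961021-140961270, plus strand): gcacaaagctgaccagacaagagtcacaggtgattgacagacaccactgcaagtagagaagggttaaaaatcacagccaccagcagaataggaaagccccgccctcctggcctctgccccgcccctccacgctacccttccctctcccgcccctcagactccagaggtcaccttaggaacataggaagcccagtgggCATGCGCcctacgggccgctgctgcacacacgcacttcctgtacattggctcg
Ndufaf4 (chr4:24897833-24898082, plus strand): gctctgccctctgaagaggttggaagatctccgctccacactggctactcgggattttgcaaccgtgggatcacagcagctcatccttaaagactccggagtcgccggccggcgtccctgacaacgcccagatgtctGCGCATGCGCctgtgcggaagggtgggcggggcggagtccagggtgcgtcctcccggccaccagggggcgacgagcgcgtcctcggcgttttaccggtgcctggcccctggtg
Cox7a2l (chr17:83514334-83514583, minus strand): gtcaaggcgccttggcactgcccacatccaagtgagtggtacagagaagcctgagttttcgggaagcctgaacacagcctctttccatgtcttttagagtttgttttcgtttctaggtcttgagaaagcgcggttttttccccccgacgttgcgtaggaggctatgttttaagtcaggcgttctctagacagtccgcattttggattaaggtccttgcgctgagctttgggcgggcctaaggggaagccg

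Matches to these motifs were counted in the whole 300-base window that RefSeq-based promoter entries cover, 250 bases before and 50 after the start, for 76 of the 92 genes. Promoter sequences of 16 genes, Cox6a2 among them, were not used here. GCGCATG was in 15 of the 76 windows (19.7%), against 4.04% of 27025 promoters of all genes. CCGGAAG was in 16 (21.1%, against 9.12%) and AAGATGG in 11 (14.5%, against 6.48%). The E-box CAGGTG was in 15 (19.7%, against 20.03%), and the E-box CAGCTG in 6 (7.89%, against 16.1%). The windows of Cox7b and Ndufv3, which were also higher in both knockouts, held none of the first 3 motifs, nor did that of Cox7a2l. On the log2 scale the median difference was 0.20 for the 15 tested genes with GCGCATG and 0.15 for the 58 without it. It was 0.13 for 16 genes with CCGGAAG and 0.19 for 57 without it, and 0.22 for 11 genes with AAGATGG and 0.15 for 62 without it. A match is a description of these letters in the window.

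Cox6a2 encodes the heart and muscle form of subunit 6a of cytochrome c oxidase (complex IV), a small subunit that binds adenine nucleotides, and its transcript is also known from plasmacytoid dendritic cells. It lies on chromosome 7, from 128205435 to 128206366 (GRCm38). Its level was 24.5 and 5.30 CPM in the controls and 222 and 220 CPM in the knockouts. Both knockouts were far above both controls, the 2 knockouts were nearly equal, and the controls differed from each other. The means were 14.9 ± 13.6 and 221 ± 1.09 CPM (SD, n = 2), a 14.8-fold ratio, with a log2 fold change of 3.88 ± 0.70 and an adjusted p of 0.0197 by edgeR. The call held in each of 11 other analyses (other scalings, filters and tests, sex as a block, each library left out), at adjusted p-values from 7.74e-10 to 0.0313. The size depended on the controls, and leaving out control 55 gave 5.41 on the log2 scale, against 3.17 when control 69 was left out.

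Cox6a1, the common form of the same subunit on chromosome 5, did not pass. It was at 135 and 164 CPM in the controls and at 179 and 135 CPM in the knockouts, so the groups overlapped. The estimate was 0.07 ± 0.19 on the log2 scale (adjusted p of 0.81). Scaled to exon length, Cox6a2 made up 13.2% and 2.64% of the summed subunit 6a transcripts in the controls and 51.0% and 57.8% in the knockouts. The sum of both genes was 273 and 295 CPM per kilobase in the controls and 640 and 561 CPM per kilobase in the knockouts. The muscle form exceeded the common form per kilobase in both knockouts and in neither control.

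Most dendritic cell markers moved with Cox6a2, and their part in its rise was not tested. Of the 12 markers, 10 rose and 0 fell by edgeR, and the median of the 12 was 3.48 on the log2 scale. Spib and Xcr1 did not pass. Spib was at 1517 and 691 CPM in the controls and at 633 and 950 CPM in the knockouts. Xcr1 was at 0.459 and 0.263 CPM in the controls and at 0.223 and 0.664 CPM in the knockouts. Their estimates were -0.48 ± 0.42 and 0.25 ± 0.77 (adjusted p of 0.45 and 0.84). The growth factor receptor gene Flt3 was at 39.8 and 27.1 CPM in the controls and at 376 and 541 CPM in the knockouts. Bst2, a gene highly expressed by plasmacytoid dendritic cells, was at 133 and 69.3 CPM in the controls and at 1324 and 1434 CPM in the knockouts. Within the controls, both genes and Cox6a2 were higher in control 55 than in control 69. Siglech and Ccr9, other genes of plasmacytoid dendritic cells chosen after their values were seen, were at 194 and 49.98 CPM in control 55, at 28.3 and 12.5 CPM in control 69, and at 1262 to 2305 and 578 to 754 CPM in the knockouts.

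**Figure D2:**
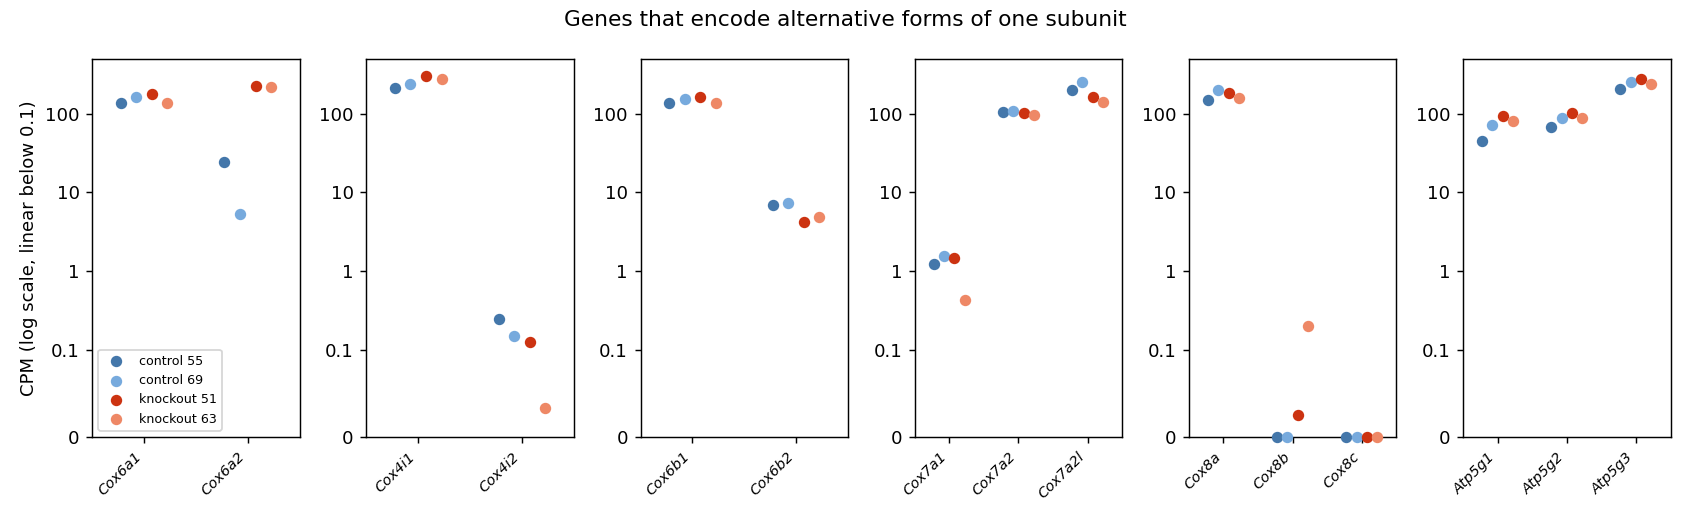
CPM (vertical axis, logarithmic above 0.1 and linear below) in each of the 4 libraries (coloured points) for genes that encode alternative forms of a subunit. Cox6a2 is at 24.5 and 5.30 CPM in the controls and at 222 and 220 CPM in the knockouts, beside Cox6a1 at 135 to 179 CPM in all 4.

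The genes around Cox6a2, chosen by position after its values were seen, were examined because its exons overlap those of Itgad by 70 bases (10.3% of its exon length), and without a known strand setting reads there cannot be assigned. Within 200 kb between gene starts, 7 of 10 neighbours in the count table were tested, of which 3 rose, 1 fell and 3 did not pass. Itgad, which encodes an integrin alpha chain, was at 5.72 and 4.66 CPM in the controls and at 23.4 and 24.7 CPM in the knockouts. That is well below Cox6a2 in the knockouts. Itgax, which encodes CD11c of dendritic cells and ends 54.8 kb away, was at 17.2 and 4.47 CPM in the controls and at 231 and 172 CPM in the knockouts (log2 fold change of 4.21 ± 0.65, adjusted p of 0.0145). Rgs10, a regulator of G protein signalling 167.3 kb away, also rose (2.03 ± 0.39, adjusted p of 0.0234, and 0.0542 without knockout 63). Itgam, which encodes CD11b of myeloid cells, fell (-2.06 ± 0.30, adjusted p of 0.0126). Armc5 and 9130023H24Rik, the nearest measured genes on the other side, did not pass (-0.20 ± 0.17 and -0.19 ± 0.32, adjusted p of 0.44 and 0.70).

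**Figure D3:**
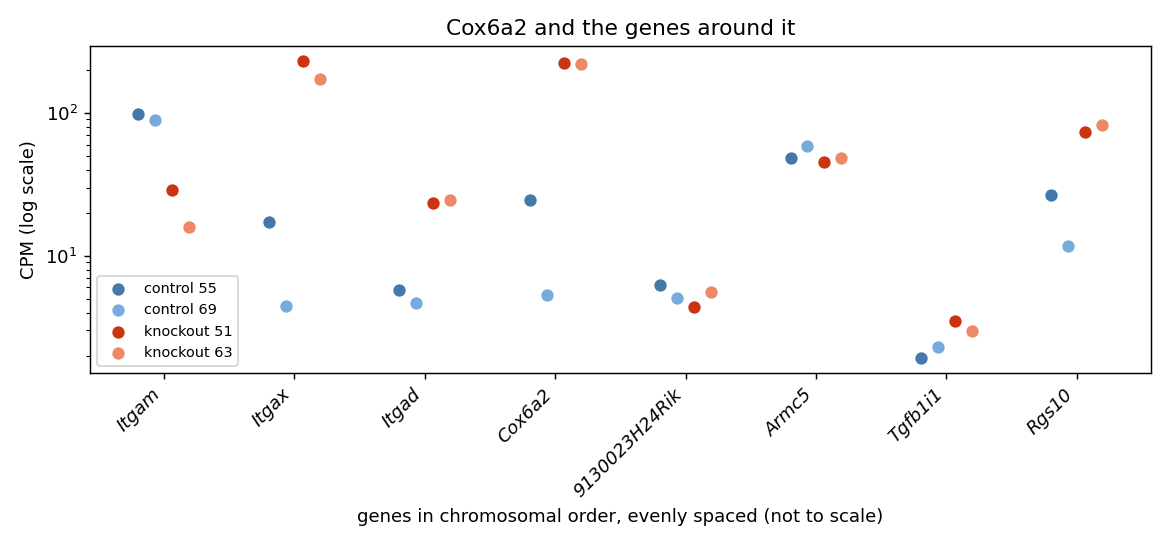
CPM (vertical axis, logarithmic) in each of the 4 libraries (coloured points) for Cox6a2 and its neighbours that reached 1 CPM in a library, in chromosomal order. Itgax, Itgad, Cox6a2 and Rgs10 are higher in both knockouts, Itgam is lower, and 9130023H24Rik, Armc5 and Tgfb1i1 did not pass.

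The other 85 tested genes lay close to each other. Their log2 fold changes ranged from -0.66 to 0.69. Of all 86 tested, 78 (90.7%) lay within 0.5 of zero on the log2 scale, against 53.3% of all genes tested. The sets were not matched for level. Of the 86, 80 had a mean of at least 10 CPM in controls. The median SE was 0.16 for the 86 and 0.23 for all genes tested. The median estimate of the 86 was 0.19, against -0.02 for all genes tested. An estimate above zero was found for 71 of the 86 (82.6%), against 48.7% of all genes tested. The levels of 43 genes were higher in both knockouts than in both controls (50%, where 33% of all genes tested were so separated), 4 were lower in both (4.65%, against 34.6%), and 39 overlapped. The summed level of the 92 genes was 8316 and 9407 CPM in the controls and 10582 and 9766 CPM in the knockouts, which is 14.8% higher on average, or 12.5% without Cox6a2. The median shift of 0.19 was larger than the median gap between mice of either genotype. The median gene of the 86 was 0.16 higher on the log2 scale in control 69 than in control 55, and 74 genes were higher in control 69. It was 0.11 higher in knockout 51 than in knockout 63, with 66 genes higher in knockout 51. In both genotypes the male library was thus the higher one. Between mice of the same sex, the median difference was 0.15 for the males, knockout 51 and control 69 (66 of 86 genes higher in the knockout), and 0.23 for the females, knockout 63 and control 55 (73 of 86), and 71 genes had the same sign in both pairs. Between mice of different sex, the median difference was 0.33 between knockout 51 and control 55, but 0.07 between knockout 63 and control 69, where 48 of 86 genes were higher in the knockout. For 41 of the 86 genes the genotype difference exceeded the difference between the mice of either genotype, which held for 7697 of all 13507 genes tested.

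**Figure D4:**
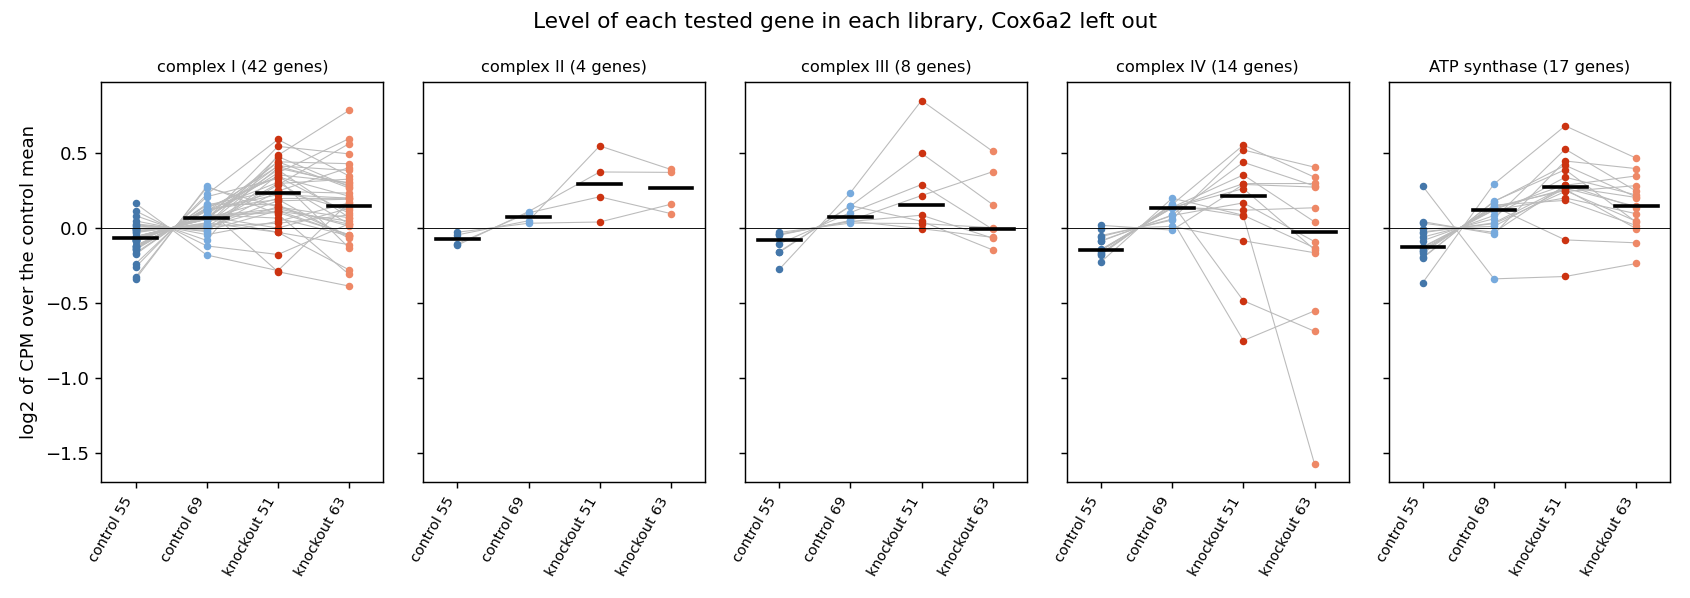
Log2 of the CPM of each tested gene over its control mean (vertical axis) in the 4 libraries (horizontal axis), by complex, with Cox6a2 left out; grey lines join the values of a gene and black bars are medians. The knockout 51 medians are highest in all 5 panels, control 69 lies above control 55, and knockout 63 lies below control 69 in complexes III and IV.

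Complex I oxidises NADH and hands its electrons to ubiquinone. Of its 43 genes 42 were tested, 0 passed in edgeR, and 4 had an unadjusted p under 0.05, all higher in the knockout. The median log2 fold change was 0.10 over the 7 core subunits, 0.19 over 28 tested accessory subunits and 0.32 over 7 assembly factors, and 36 of the 42 estimates were above zero. The summed level of the complex was 2123 and 2321 CPM in the controls and 2573 and 2418 CPM in the knockouts. Among core subunits, Ndufv2, an iron-sulfur subunit beside the NADH site, was at 86.2 and 93.6 CPM in the controls and at 120 and 117 CPM in the knockouts. Its groups did not overlap, with an estimate of 0.40 ± 0.12 (adjusted p of 0.0765). Ndufv1, the flavin-binding subunit that oxidises NADH, was at 65.7 and 77.7 CPM in the controls and at 83.5 and 82.2 CPM in the knockouts (0.21 ± 0.14, adjusted p of 0.34).

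Among accessory subunits of complex I, Ndufv3 and Ndufb9 came closest to the threshold. Ndufv3 was at 39.2 and 42.4 CPM in the controls and at 59.4 and 57.3 CPM in the knockouts, with a log2 fold change of 0.52 ± 0.15 (adjusted p of 0.0596). Ndufb9 was at 58.1 and 65.6 CPM in the controls and at 83.8 and 83.1 CPM in the knockouts (0.43 ± 0.14, adjusted p of 0.0768). Both were separated between genotypes, and 28.6% of the exon bases of Ndufb9 are overlapped by Gm49356. Ndufv3 was called by DESeq2 (adjusted p of 0.0241), and both were called with sex as a block (0.0306 and 0.0422).

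Of the assembly factors, Ndufaf4 was at 27.5 and 24.5 CPM in the controls and at 36.3 and 44.7 CPM in the knockouts. The estimate was 0.64 ± 0.19 (adjusted p of 0.0657), and it was called with DESeq2 (0.0296), without a filter (0.0498) and with sex as a block (0.0285). Ndufaf2 was at 10.1 and 11.1 CPM in the controls and at 13.6 and 16.0 CPM in the knockouts (0.49 ± 0.23, adjusted p of 0.18). Both were higher in each knockout than in each control. Ndufaf3 was the 1 complex I gene that was lower in both knockouts, at 22.2 and 26.7 CPM in the controls and 19.96 and 18.7 CPM in the knockouts (-0.34 ± 0.20, adjusted p of 0.27). It was singled out after its values were seen. Ndufs5, an accessory subunit of the intermembrane space side, had 0 counts in all 4 libraries, where 3 counts correspond to 0.0743 to 0.113 CPM. Of its 50-base transcript windows, 21.7% also occur in transcripts of another annotated gene. The annotation and the treatment of multiply aligned reads are unknown, so this 0 does not show that the gene was silent.

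Complex II is succinate dehydrogenase, shared by the respiratory chain and the citric acid cycle. Its summed level was 523 and 568 CPM in the controls and 641 and 636 CPM in the knockouts. All 4 subunit genes had estimates above zero and 0 passed in edgeR, with 2 at an unadjusted p under 0.05. Sdhb, the iron-sulfur subunit, was at 109 and 116 CPM in the controls and at 164 and 147 CPM in the knockouts. The estimate was 0.47 ± 0.13 (adjusted p of 0.0587), and it was called by DESeq2 (0.0335) and with sex as a block (0.0278). Sdhc, a membrane anchor, was at 62.1 and 72.5 CPM in the controls and at 87.0 and 86.9 CPM in the knockouts (0.37 ± 0.14, adjusted p of 0.12). Both genes were separated between genotypes. Sdha, the flavoprotein that oxidises succinate, was at 246 and 256 CPM in the controls and at 258 and 279 CPM in the knockouts (0.10 ± 0.14), and Sdhd, the second anchor, overlapped between genotypes (0.15 ± 0.14).

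The assembly factors of complex II, which fall outside the symbol rule, had 1 estimate above zero among 4 tested. Of these 4, 1 fell (25%, against 10.9% of all genes tested) and 0 rose (against 11.3%). Sdhaf2, which is needed for the attachment of flavin to Sdha, fell from 127 and 104 CPM in the controls to 54.0 and 55.1 CPM in the knockouts, with a log2 fold change of -1.09 ± 0.15 and an adjusted p of 0.0118 by edgeR (0.0552 without knockout 63). The controls and knockouts were well separated. Sdhaf1 and Sdhaf4 had log2 fold changes of -0.29 ± 0.20 and 0.30 ± 0.27 and did not pass.

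Complex III passes electrons from ubiquinol to cytochrome c. All 8 of its genes that the symbol rule takes in were tested, 0 passed in edgeR, and 1 had an unadjusted p under 0.05. The median log2 fold change was 0.08, and the summed level was 813 and 918 CPM in the controls and 965 and 881 CPM in the knockouts, so the groups overlapped. Uqcr11, a small membrane subunit, had the largest estimate of any gene here after Cox6a2. It was at 35.2 and 50.2 CPM in the controls and at 76.9 and 60.8 CPM in the knockouts (0.69 ± 0.23, adjusted p of 0.0886). Its call depended on the method and on control 69, with adjusted p-values of 0.0403 by DESeq2, 0.0487 without a filter, 0.0119 with sex as a block and 0.0169 without control 69. Uqcrb, a subunit at the quinone site, was at 66.1 and 70.7 CPM in the controls and at 79.3 and 88.5 CPM in the knockouts (0.30 ± 0.14, adjusted p of 0.18), and 43.4% of its windows are shared with other genes. The core proteins Uqcrc1 and Uqcrc2, the Rieske protein Uqcrfs1 and the hinge protein Uqcrh overlapped between genotypes, with estimates from -0.05 to 0.01.

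Complex IV, cytochrome c oxidase, reduces oxygen to water. It held the widest range of the 5 complexes, with tested estimates from -0.66 to 3.88. Its summed level was 1571 and 1833 CPM in the controls and 2155 and 1940 CPM in the knockouts. Of 20 genes 15 were tested, and 3 of the 4 genes that were lower in both knockouts belong to it. Among subunits with a single common gene, Cox5a, a matrix-side subunit, was at 106 and 133 CPM in the controls and at 175 and 151 CPM in the knockouts. The estimate was 0.45 ± 0.17 (adjusted p of 0.12), and it was called with sex as a block (0.0319) and without control 69 (0.0475). Cox7c was at 80.0 and 78.2 CPM in the controls and at 96.6 and 95.4 CPM in the knockouts (0.28 ± 0.12, adjusted p of 0.16). Cox7b, on the X chromosome, was at 104 and 113 CPM in the controls and at 156 and 144 CPM in the knockouts. Its groups did not overlap and its log2 fold change was 0.46 ± 0.13, with an adjusted p of 0.0580, the lowest after Cox6a2. It was called by DESeq2 (0.0326) and with sex as a block (0.0283).

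Cox7a2l, also known as SCAFI or COX7RP, encodes a relative of subunit 7a that joins complexes III and IV into supercomplexes. It was at 200 and 253 CPM in the controls and at 162 and 141 CPM in the knockouts. Both knockouts were below both controls. Its log2 fold change was -0.58 ± 0.17 with an adjusted p of 0.0663, so it did not pass in the main test. It was called lower by DESeq2 (0.0335), with sex as a block (0.0162) and without control 55 (0.0293), and its adjusted p ranged up to 0.311 over the other analyses. C57BL/6 mice are known to carry a short form of its protein, which gene counts do not show. Cox7a2, the common form of subunit 7a, was at 106 and 107 CPM in the controls and at 100 and 94.8 CPM in the knockouts (-0.13 ± 0.12, adjusted p of 0.49). Cox7a1, the heart and muscle form, was at 0.431 to 1.54 CPM in the 4 libraries (-0.52 ± 0.67). Per exon length, Cox7a2l made up 51.8% to 57.2% of the 3 genes in controls and 45.9% to 47.7% in knockouts. The ranges did not overlap.

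The other alternative forms of complex IV subunits stayed at low levels in all libraries. Cox6b2, the testis form of subunit 6b, was at 6.79 and 7.29 CPM in the controls and at 4.16 and 4.78 CPM in the knockouts (-0.66 ± 0.29, adjusted p of 0.16), beside Cox6b1 at 134 to 160 CPM (0.04 ± 0.15). Cox4i2, the form of subunit 4 enriched in lung, had 8 and 4 counts in the controls and 5 and 1 in the knockouts, while Cox4i1 was at 210 and 237 CPM in the controls and at 302 and 271 CPM in the knockouts (0.36 ± 0.15, adjusted p of 0.14). Cox8b, the muscle form of subunit 8, had 0 counts in the controls and 1 and 6 counts in the knockouts. Cox8c and Cox7b2, forms of testis, had 0 counts in all 4 libraries. Cox8a was at 147 and 198 CPM in the controls and at 183 and 157 CPM in the knockouts (-0.02 ± 0.19), so the groups overlapped. Ndufa4, first counted with complex I and now placed in complex IV, was at 124 to 151 CPM in all libraries, and its low-oxygen relative Ndufa4l2 had 0 to 4 counts per library. Of the muscle, lung and testis forms, Cox6a2 was alone in exceeding 10 CPM in any library.

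ATP synthase makes ATP in its catalytic F1 head, driven by a ring of c subunits in the membrane. All 17 genes that the symbol rule takes in were tested and 0 passed in edgeR, with 1 at an unadjusted p under 0.05. The 15 subunit genes among them all had estimates above zero, from 0.10 to 0.58. The summed level of the 17 genes was 3285 and 3768 CPM in the controls and 4247 and 3891 CPM in the knockouts. In the head and stalk, Atp5b, the catalytic beta subunit, was at 880 and 1048 CPM in the controls and at 1175 and 1056 CPM in the knockouts (0.21 ± 0.19, adjusted p of 0.47). Atp5e, the epsilon subunit, was at 112 and 122 CPM in the controls and at 168 and 138 CPM in the knockouts (0.39 ± 0.15, adjusted p of 0.12). Atp5c1, the gamma subunit, was at 228 and 219 CPM in the controls and at 272 and 284 CPM in the knockouts (0.31 ± 0.13, adjusted p of 0.15). All 3 were separated between genotypes, Atp5b by a narrow margin.

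The c subunit of the ring is made from 3 genes whose mature products are known to be the same. Atp5g1 was at 44.8 and 70.5 CPM in the controls and at 92.3 and 79.4 CPM in the knockouts (0.58 ± 0.24, adjusted p of 0.15). It was called with sex as a block (0.0298) and without control 69, where its log2 fold change was 0.94 (0.0113). Atp5g2 was at 67.2 and 86.9 CPM in the controls and at 103 and 88.8 CPM in the knockouts (0.31 ± 0.18, adjusted p of 0.25), and Atp5g3 at 208 and 255 CPM in the controls and at 275 and 238 CPM in the knockouts (0.15 ± 0.17, adjusted p of 0.56). Per exon length, Atp5g3 held 72.5% to 74.0% of the 3 genes in controls and 70.4% to 70.5% in knockouts. Atp5g1 took 2.35% to 2.96% and 3.46% to 3.49%, a share that rests on a long annotated exon length of 4912 bases. In the peripheral stalk and membrane part, Atp5l was at 22.4 and 21.2 CPM in the controls and at 29.7 and 28.7 CPM in the knockouts (0.42 ± 0.17, adjusted p of 0.14). Atp5l shares 84.8% of its windows with other genes, so its level is uncertain. Atp5j2 was at 109 and 122 CPM in the controls and at 146 and 134 CPM in the knockouts (0.28 ± 0.13, adjusted p of 0.19).

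Both genes named after ATP synthase that are not subunits had estimates below zero. Atp5sl, now Dmac2 and linked to the membrane arm of complex I, was at 85.4 and 55.7 CPM in the controls and at 56.3 and 59.8 CPM in the knockouts (-0.28 ± 0.23, adjusted p of 0.42). Control 55 alone was high and control 69 lay with the knockouts. Leaving out control 55 gave an estimate of 0.09, and leaving out control 69 gave -0.56 (adjusted p of 0.0485). Atp5s was at 6.42 to 7.89 CPM in all 4 libraries (-0.09 ± 0.28).

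Compared per kilobase of exon, ATP synthase and complex IV subunits had the highest levels. The median over tested subunits of complex IV was 161 CPM per kilobase in controls and 150 in knockouts. In the same order of genotypes it was 141 and 169 for ATP synthase, 103 and 129 for complex III and 90.1 and 98.3 for complex II. It was 52.0 and 61.4 for complex I, and 8.25 and 10.3 for the 7 Ndufaf assembly factors. Complex IV was thus above ATP synthase in controls and below it in knockouts. Atp5b led, at 503 ± 62.0 CPM per kilobase in controls and 582 ± 43.9 in knockouts (SD, n = 2). Atp5g3 followed at 320 ± 46.0 and Cox8a at 314 ± 64.8 in controls, a pair that did not differ beyond their spread, and nor did Atp5a1, Cox4i1 and Uqcrh, at 291 to 292. Lengths came from GENCODE M21 coding transcripts, and long alternative ends lower the per-length value of genes such as Atp5g1 and Ndufab1.

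Beyond the 92 genes, 9 lists of related functions held 119 tested genes, of which 7 rose (5.88%, against 11.3% of all genes tested) and 6 fell (5.04%, against 10.9%) by edgeR, with a median log2 fold change of 0.15. For complexes I, III and IV and ATP synthase, lists of assembly factors and partner genes gave 0 calls in edgeR. They held 9 further assembly factors of complex I, 8 partners and assembly factors of complex III and 20 assembly genes of complex IV. The list of ATP synthase held 5 genes, not all of them assembly factors, with its inhibitor Atpif1 among them. The medians were 0.18, 0.26, 0.13 and 0.12. The lowest adjusted p-values there were those of Coa5 (0.0603), Pet100 (0.0732) and Uqcc2 (0.0851), all with positive estimates, and DESeq2 called each of them higher (0.0422, 0.041 and 0.0364). Cycs, which encodes cytochrome c, was at 57.1 and 61.7 CPM in the controls and at 73.9 and 76.7 CPM in the knockouts (0.34 ± 0.13, adjusted p of 0.13).

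Of 25 genes of the outer membrane, protein import and folding, 5 rose (20%, where 11.3% of all genes tested rose) and 0 fell (against 10.9%), with a median of 0.34. Hspe1 and Hspd1, the mitochondrial chaperonins, had log2 fold changes of 0.92 ± 0.13 and 0.69 ± 0.15 (adjusted p of 0.0118 and 0.0291). Hspe1 was at 88.9 and 86.5 CPM in the controls and at 175 and 157 CPM in the knockouts. Phb, a prohibitin of the inner membrane, and, chosen after their values were seen, the import genes Timm9 and Tomm20 had log2 fold changes of 0.65 ± 0.16, 0.73 ± 0.19 and 0.58 ± 0.15 (adjusted p of 0.0440, 0.0477 and 0.0441). Leaving out a library ended most of these calls. Without knockout 51 the adjusted p was 0.0562 for Hspe1 and 0.137, 0.188, 0.211 and 0.20 for Hspd1, Phb, Timm9 and Tomm20. Without knockout 63 it was 0.119 for Hspd1, 0.173 for Phb, 0.162 for Timm9 and 0.163 for Tomm20, and without control 55 it was 0.0634, 0.0773, 0.0915 and 0.0841. Timm9 also missed the threshold without control 69 (0.0804). With total counts in place of TMM scaling, Phb, Timm9 and Tomm20 did not pass (0.0505, 0.0526 and 0.0517).

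Of 19 genes of the citric acid cycle and pyruvate oxidation, 1 rose (5.26%, against 11.3% of all genes tested) and 0 fell (against 10.9%). The median was 0.03. Idh3a, a subunit of isocitrate dehydrogenase, was at 63.6 and 75.7 CPM in the controls and at 98.4 and 109 CPM in the knockouts (0.57 ± 0.15, adjusted p of 0.0487). It did not pass with total counts (0.0559) or without control 55 (0.0960), knockout 51 (0.138) or knockout 63 (0.264). Of 15 genes of mitochondrial DNA maintenance and expression, 1 fell (6.67%, against 10.9% of all genes tested) and 0 rose (against 11.3%). Polg, the catalytic subunit of the mitochondrial DNA polymerase, fell from 140 and 134 CPM in the controls to 48.3 and 53.3 CPM in the knockouts, with a log2 fold change of -1.43 ± 0.13 and an adjusted p of 0.00601 by edgeR. The genotypes were far apart relative to the spread within each. Tfam, which packages mitochondrial DNA and was picked as a familiar regulator, was close between groups (-0.15 ± 0.13, adjusted p of 0.47), and Ssbp1 was at 0.54 ± 0.15 (adjusted p of 0.0571, and 0.0305 by DESeq2).

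Of 14 tested regulators of respiratory gene transcription, 4 fell and 1 rose, where 10.9% of all genes tested fell and 11.3% rose. Nrf1, the factor whose motif holds GCGCATG, was at 99.1 and 123 CPM in the controls and at 72.3 and 56.2 CPM in the knockouts (-0.79 ± 0.19, adjusted p of 0.0386). It did not pass without control 69 (0.0587), knockout 51 (0.0637) or knockout 63 (0.203). Gabpb1, a partner subunit of the ETS factor GABPA, was at 108 and 127 CPM in the controls and at 70.3 and 64.5 CPM in the knockouts (-0.80 ± 0.15, adjusted p of 0.0202), but not called without knockout 51 (0.0752) or knockout 63 (0.126). Both knockouts lay below both controls for each of these genes. Esrrb, an orphan nuclear receptor gene, is 1 of the 4 that fell. It was at 2.29 and 1.54 CPM in the controls and at 0.149 and 0.0996 CPM in the knockouts (adjusted p of 0.0144 by edgeR). It did not pass without knockout 63. The knockout levels lie near the floor, as 3 counts correspond to 0.0743 and 0.0996 CPM in these libraries. Esrrb passed the filter only through the controls, so the size of its fall is uncertain. The remaining calls, named after their values were seen, were Gabpb2 (-0.59 ± 0.15, adjusted p of 0.0479) and Ppard (0.68 ± 0.18, adjusted p of 0.0479). Gabpb2 did not pass with DESeq2 size factors (0.0541), without a filter (0.0515), with the stricter filter (0.0589) or without control 55 (0.129), knockout 51 (0.147) or knockout 63 (0.274). Ppard did not pass with total counts (0.0503) or without control 69 (0.108), knockout 51 (0.155) or knockout 63 (0.232).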

How the data were processed

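RNA of sorted pro-B cells from 4 mice was sequenced (RNeasy Mini and NEBNext low input kits, per the labels' protocols). Tools listed in the submitters' processing notes include STAR 2.7.4a, Subread 2.0.0, featureCounts and DESeq2, and the builds listed are GRCm38 and mm10. Annotation, strandedness and the treatment of multiply aligned reads: not given in the sources used here. The authors deposited raw counts per gene symbol, which were analysed, and a normalized signal equal to the counts times 1 factor per library (1.01, 1.22, 0.816 and 1.10 for mice 55, 69, 51 and 63), which was not used in tests.

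Counts were filtered by filterByExpr (minimum count of 10, total of 15), scaled by TMM and tested with edgeR 4.0.16 in R 4.3.3, without covariates. The biological coefficient of variation was 0.251. An exact permutation of 2 against 2 mice cannot go below 0.333 and was not used. SE was derived from the log2 fold change divided by the root of F. The procedure was also run on simulated data with known changes and the same dispersion for all genes. How often changes as small as most of those here were recovered is not reported here. A gene that did not pass is therefore not shown to be unchanged. Alternatives were DESeq2 size factors, unscaled totals, omitting the filter, requiring 1 CPM in 2 libraries with a mean count of 50 (the stricter filter), the DESeq2 1.42.0 test, limma-voom (limma 3.58.1), sex as a block (1 residual degree of freedom) and each library left out. The labels pair no mice across genotypes.

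The genes and lists were chosen with earlier results of these data known. Named genes were those that passed, the 2 of each role class with the lowest adjusted p, genes with alternative forms, the 3 highest per kilobase, up to 3 per related list and up to 2 per marker list. All 92 symbols matched RefSeq GRCm38.p6 (3 by synonym). Shared sequence was counted as 50-base windows of GENCODE M21 coding transcripts also present in transcripts of other genes. At least 10% of windows were shared for 24 genes, and at least 10% of exon bases overlapped another gene for 13, so those counts are uncertain. Some genes further from Cox6a2 are not reported here.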

Additional observations from a re-analysis of the deposited data

How the results depend on the processing

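Cox6a2 kept its direction and its call in all 11 other analyses. The number of the 92 genes called higher, 1 in the main test, was 3 without a filter, 6 with DESeq2, 10 with sex as a block and 1 to 4 with a library left out. The number called lower, 0 in the main test, was 1 with DESeq2, 1 with sex as a block and 0 to 1 with a library left out. The median log2 fold change of the tested genes, 0.19, kept its direction and lay between 0.13 and 0.29 when 1 library was omitted. Restricting the genes to annotated subunits or to 60 with little shared sequence, both chosen after seeing the data, gave medians of 0.20 and 0.15. Of the 119 other tested genes of the pathway, 7 were called higher and 6 lower in the main test, against 11.3% and 10.9% of all genes tested. These shares of all genes also changed with the setting. They were 10.9% and 11.4% with total counts, 15.2% and 14.1% with DESeq2 and 15.8% and 16.2% with sex as a block. Those with a library left out are given in the Results. Whether the pathway counts below changed beyond these shares was not tested. The higher count was 2 with total counts, 16 with DESeq2, 15 with sex as a block and 0 to 11 with a library left out, and the lower count was 6 with total counts, 8 with DESeq2, 8 with sex as a block and 1 to 5 with a library left out. Estimates near zero changed sign in some settings, as did those of Cox7a1 and Atp5sl, which were at -0.52 and -0.28 in the main test. No estimate was called where its sign differed from the main test. Cox8a, at -0.02, was at 0.014 without a filter and 0.0021 with the stricter filter. With a library left out, Cox8a ranged from -0.18 to 0.21, Cox6a1 from -0.15 to 0.26, Cox6b1 from -0.093 to 0.17, Cox7a1 from -1.67 to 0.085, Atp5s from -0.20 to 0.065 and Atp5sl from -0.56 to 0.092. With a library left out, the lone library is assumed to vary like the others. The cause of these changes was not tested. The mouse numbers in the labels are not shared between genotypes, so mice were not paired by number, and the block of sex, read from the data, pairs knockout 51 with control 69 and knockout 63 with control 55.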
